A study of Homo sapiens with 6 samples.

Results

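The HOX cluster genes were examined in summit lists of open chromatin from GM12878, a B lymphoblastoid cell line carrying Epstein-Barr virus. They were taken as the protein-coding genes of the GRCh38 RefSeq annotation named HOXA, HOXB, HOXC or HOXD and a number, 39 of 19974 genes. They lie in 4 clusters, with 11 genes in HOXA on chromosome 7, 10 in HOXB on chromosome 17, 9 in HOXC on chromosome 12 and 9 in HOXD on chromosome 2. Each cluster was read from its first to its last gene and 10 kb either side, windows of 127.1 kb for HOXA, 220.2 kb for HOXB, 137.2 kb for HOXC and 123.4 kb for HOXD.

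HOX genes encode transcription factors that bind DNA through a homeodomain and set positional identity along the body axis of the embryo. Genes with the same number in different clusters are paralogs, low numbers being active towards the head and high numbers towards the tail and limbs. In blood, many HOX genes are used by stem and progenitor cells and shut down as cells mature, and Polycomb complexes are known to keep silent clusters closed.

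There were 3 groups of 2 libraries: cells sorted for high staining of H3K27ac, the acetylation of histone H3 found at active regulatory DNA, cells sorted for low staining, and a live control. The sorted cells were fixed with paraformaldehyde, stained and sorted by fluorescence before transposition with Tn5 (InTAC-seq, which applies ATAC-seq after fixation and intracellular staining). The live control was not sorted, and its DNA was purified without reversal of crosslinks. Fixation, sorting and crosslink reversal therefore cannot be told apart in any comparison of sorted with live libraries, and replicates of 50000 cells were split after sorting, so tests over libraries measure a spread that may be technical.

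List length was 25754 and 46708 summits for H3K27ac high, 41980 and 51944 for H3K27ac low, and 70100 and 72476 for the live control. The lists give no read numbers, so depth is unknown. Summits of all lists closer than 250 bp were joined into regions, and for comparisons at equal length each library kept its 25627 regions of best score, the number in the shortest list, H3K27ac high replicate 1. A gene counted as open where 1 of these best regions had its summit within 1 kb of an annotated start, known for 20 of the HOX genes, or, for the other 19, of either gene end. With that rule 3 of 10 B cell markers were open in all 6 libraries (CD79B, MS4A1 and POU2AF1), 0 of 10 myeloid, 2 of 10 T and NK cell, 1 of 10 erythroid (TFRC, the transferrin receptor of dividing cells) and 0 of 10 fibroblast markers. Open in no library were 5 of the B cell markers, CD22 and CR2 among them. So were 7 T and NK cell, 10 myeloid, 9 erythroid and 6 fibroblast markers. The rule thus barely set B cell markers apart from T and NK cell markers. Between 1 and 3 of the fibroblast markers were open in each library.

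Few HOX genes were open, where a gene not called open may still be accessible below the depth of these lists. Of the 39 genes, 1 was open in all 6 libraries (2.56%), while 41.5% of all protein-coding genes were. Among genes with an annotated start these were 0 of 20 HOX genes and 44.7% of all protein-coding genes. Among genes judged by either end they were 1 of 19 HOX genes and 29.6% of all. In the single libraries 1 and 1 HOX genes were open in H3K27ac high, 2 and 1 in H3K27ac low, and 3 and 2 in the live control. Of all protein-coding genes, 45.8% and 48.9% were open in the high, 51.1% and 51.0% in the low and 50.4% and 50.2% in the live libraries. HOXA3 was open in H3K27ac low replicate 1 and live replicate 1, HOXB2 in live replicate 2, and HOXB5 in live replicate 1. In all, 4 HOX genes (10.3%) were open in at least 1 library, while 55.6% of all protein-coding genes were. The other 35 HOX genes were open in none. Among the 32 SOX and TBX genes, which also encode developmental transcription factors, 4 were open in all 6 libraries (12.5%) and 26 in none. HOX genes share summits with their neighbours, so they are not independent of each other, and these shares are given without a test.

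**Figure D1:**
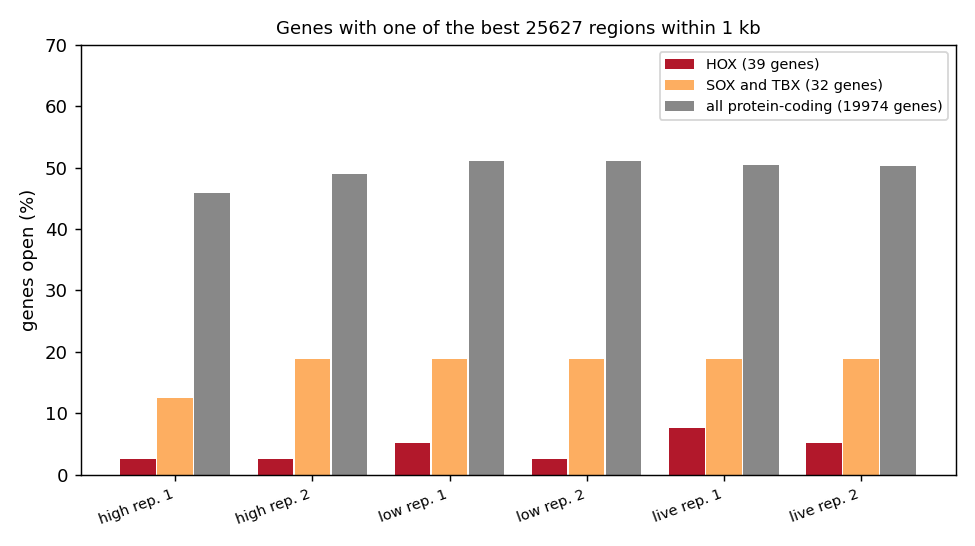
Share of genes open (percent, vertical axis) in each library for HOX genes, SOX and TBX genes and all protein-coding genes. HOX genes stand between 2.56% and 7.69% in every library, SOX and TBX genes between 12.5% and 18.8%, and all protein-coding genes between 45.8% and 51.1%.

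With the full lists, in which weaker summits count too, 11 of the 39 HOX genes had a summit of at least 1 library within 1 kb, and 64.9% of all protein-coding genes did. Among them were HOXA3 and HOXA11, HOXB2, HOXB4, HOXB5, HOXB7, HOXB8, HOXB9 and HOXB13, and HOXC10. The other 28 had none, among them all 9 HOXD genes, all HOXC genes except HOXC10, and HOXB1, HOXB3 and HOXB6. By paralog number, those with a summit were 3 of the 8 genes numbered 1 to 3, 4 of the 15 numbered 4 to 8 and 4 of the 16 numbered 9 to 13, a division chosen after the values were seen. The median distance from a HOX gene to the nearest summit of a full list was 17394 and 9533 bp in the high, 10927 and 6529 bp in the low and 3844 and 3872 bp in the live libraries. Over all protein-coding genes it was 3718 and 280 bp in the high, 293.5 and 239 bp in the low and 216 and 213 bp in the live libraries.

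In all, 118 summits of the 6 lists fell in the windows and formed 40 sites, 7 in HOXA, 19 in HOXB, 10 in HOXC and 4 in HOXD. Of these, 24 lay inside the annotated span of a HOX gene. Within 1 kb of an annotated HOX start, or of either end for HOX genes without one, lay 14. A total of 10 sites were in 1 list alone, and 4 were in all 6 lists, which is 10.0% of the HOX sites. Of all 100513 regions, 19.8% were in all 6 lists.

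**Figure D2:**
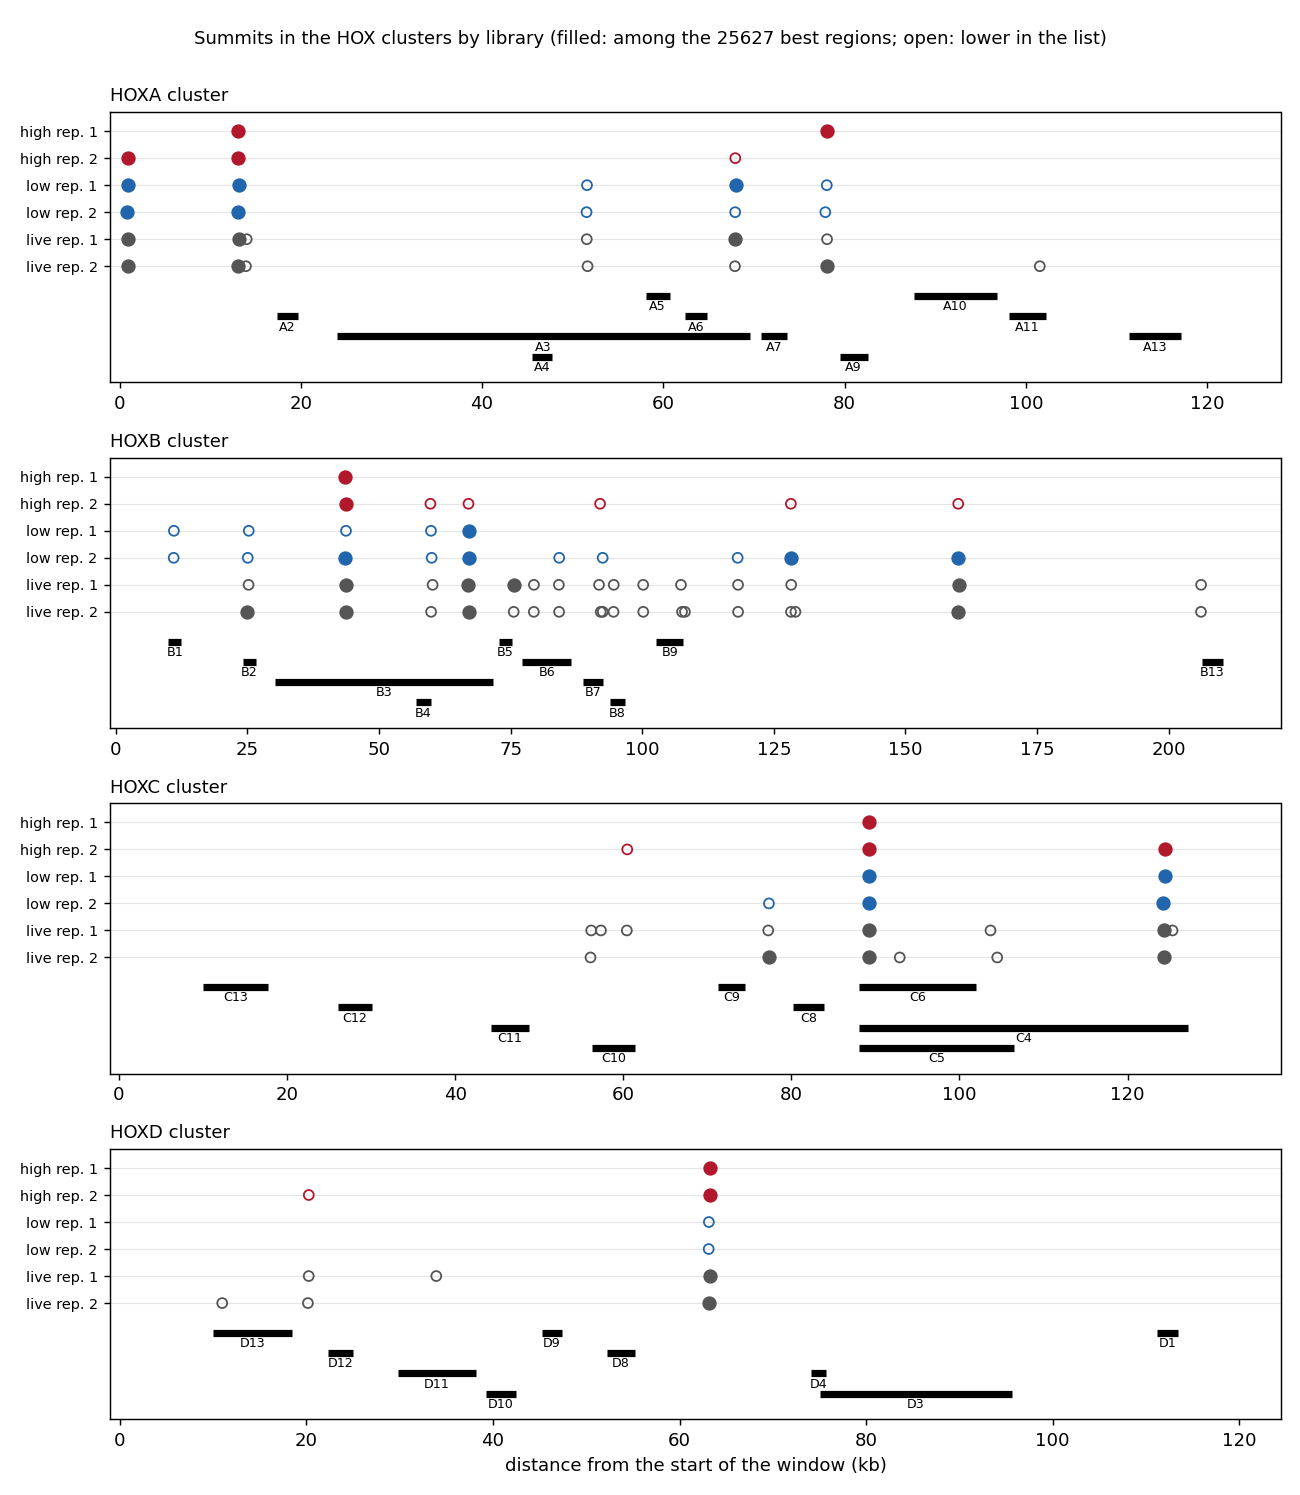
Position of the best summit of each HOX site (distance in kb along each cluster, horizontal axis) in the 6 libraries, with HOX genes as black bars below (not every gene is drawn). Filled points are among the 25627 best regions of that library and open points are lower in its list. The 4 columns that run through all 6 rows lie at HOTAIRM1, inside HOXB3, inside HOXC4 to HOXC6, and between HOXD8 and HOXD4.

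Each cluster held 1 of the 4 sites found in every list. The best ranked lay in HOXC, on chromosome 12 at 54018053 to 54018084 (hg38), inside the overlapping spans of HOXC4, HOXC5 and HOXC6. HOXC4 is known in mouse B cells as an activator of the gene for AID, the enzyme of antibody gene mutation. The site was 1175 bp from the shared annotated start of HOXC4 and HOXC5, just outside the 1 kb that defines an open gene, and 316 bp from an end of the uncharacterised gene LOC124902939. It ranked 10150 and 2670 in the high, 3439 and 3105 in the low and 4876 and 4210 in the live libraries. High replicate 1 was the lowest of the 6, and the groups overlapped.

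The HOXA site lay 3 bp from an end of HOTAIRM1, a long noncoding RNA known from myeloid differentiation. Its ranks were 8450 and 6418 in the high, 5523 and 4691 in the low and 5735 and 5248 in the live libraries. Both high libraries ranked it below the other 4, an order whose share over all regions was not counted.

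In HOXB the site was at 48562104 to 48562322 on chromosome 17, inside HOXB3, a gene expressed in blood stem cells, and 13391 bp from its nearer end. The ranks were 13742 and 23862 in the high, 32246 and 17819 in the low and 12910 and 9331 in the live libraries. H3K27ac low replicate 1 was the library in which it fell below the best 25627. The HOXD site, at 176140614 to 176140717 on chromosome 2, lay between HOXD8 and HOXD4 in no HOX gene, 8004 bp from the nearest HOX end and 3601 bp from the start of HOXD-AS2, an antisense RNA. It ranked 18691 and 25210 in the high, 29090 and 28574 in the low and 19671 and 16228 in the live libraries, and was among the best regions of all but the low libraries. The summits of the 6 lists lay within 31 bp of each other at the HOXC site, 62 bp at HOXA, 103 bp at HOXD and 218 bp at HOXB, with a median of 90 bp over all 19855 regions in all 6 lists.

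**Figure D3:**
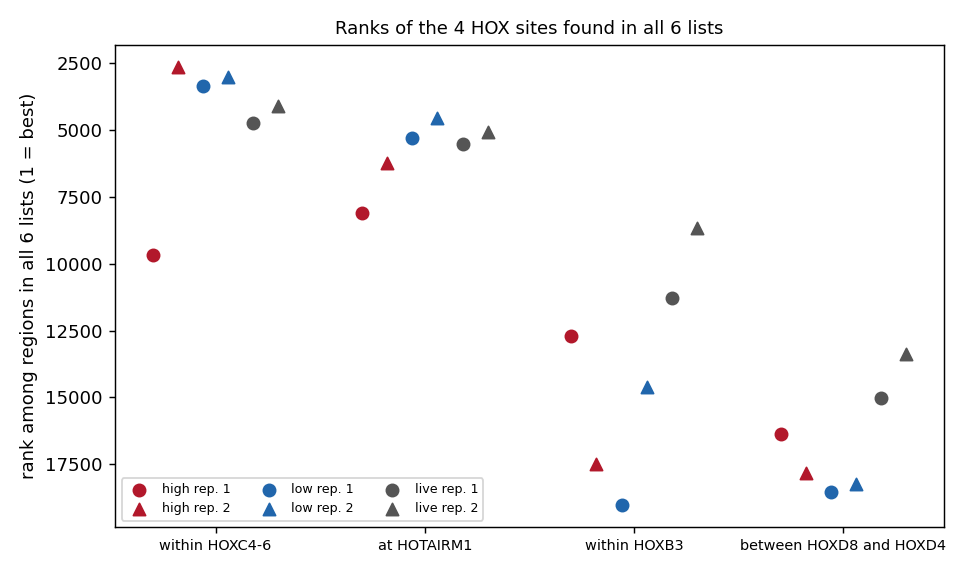
Rank of the 4 HOX sites found in all 6 lists, counted among the 19855 regions that all 6 lists share (vertical axis, 1 is the best score), by library. The HOXC4 to HOXC6 site ranks between 2627 and 4733 in all but high replicate 1, where it ranks 9657, and at the HOXB3 and HOXD sites both live libraries rank above all 4 sorted ones.

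Lists of different length make ranks of weak regions hard to compare, so the 4 sites were also ranked among the 19855 shared regions alone. There the HOXD site stood at 16353 and 17812 in the high, 18522 and 18250 in the low and 15033 and 13382 in the live libraries. The HOXA site stood at 8097 and 6221 in the high, 5293 and 4549 in the low and 5517 and 5082 in the live libraries. The HOXB site stood at 12722 and 17476 in the high, 19023 and 14619 in the low and 11294 and 8652 in the live libraries. The high libraries were both above the low ones at 1 of the 4 sites (HOXD), as in 23.8% of all shared regions, and both below them at 1 (HOXA), as in 22.9%. Both live libraries stood above all 4 sorted ones at 2 sites, HOXB and HOXD, as in 14.4% of shared regions, and all sorted above both live at 0 of 4, against 14.9% of shared regions.

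Of the HOX genes with an annotated start, HOXA3 was the one with a summit inside the 300 bases around a start, and its sequence is shown with those of a second start that held a summit and of 2 that held none. HOXA3 patterns the pharyngeal region and has 7 annotated starts. The start that held summits is 1 of them, and the site there, at 27150900 to 27151052, ranked 30295 in high replicate 2, 24865 and 35328 in the low and 23857 and 27313 in the live libraries, and was missing from high replicate 1. LINC02086 is a long noncoding RNA gene in the gap between HOXB9 and HOXB13. One of its starts lay 24 bp from a site that ranked 29948 in high replicate 2, 24418 in low replicate 2 and 44726 and 38552 in the live libraries. The HOXC4 sequence is also the HOXC5 start, the nearest annotated start to the strongest HOX site, and no summit of any list lay closer than 1165 bp to it. HOXD4, a gene of vertebral patterning, had its nearest summit 10833 bp away. The sequences are from RefSeq (GRCh38.p14), 5′ to 3′ on the strand of the gene, from 250 bases before the start, and capitals mark the motifs GGGCGG and CCAAT on either strand.
HOXA3, chr7:27150901-27151200, minus strand: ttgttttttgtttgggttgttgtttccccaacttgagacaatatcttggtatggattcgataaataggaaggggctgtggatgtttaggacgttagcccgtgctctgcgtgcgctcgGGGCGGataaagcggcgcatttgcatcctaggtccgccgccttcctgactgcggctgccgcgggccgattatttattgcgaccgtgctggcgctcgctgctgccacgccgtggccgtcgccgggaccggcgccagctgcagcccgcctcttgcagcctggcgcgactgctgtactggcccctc
LINC02086, chr17:48646509-48646808, plus strand: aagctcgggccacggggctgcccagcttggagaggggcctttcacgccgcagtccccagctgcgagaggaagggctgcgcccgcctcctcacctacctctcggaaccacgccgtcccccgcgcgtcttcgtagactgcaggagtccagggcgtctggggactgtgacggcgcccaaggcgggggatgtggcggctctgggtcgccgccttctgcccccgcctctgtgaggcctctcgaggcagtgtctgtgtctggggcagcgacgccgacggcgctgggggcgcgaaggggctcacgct
HOXC4 and HOXC5, chr12:54016638-54016937, plus strand: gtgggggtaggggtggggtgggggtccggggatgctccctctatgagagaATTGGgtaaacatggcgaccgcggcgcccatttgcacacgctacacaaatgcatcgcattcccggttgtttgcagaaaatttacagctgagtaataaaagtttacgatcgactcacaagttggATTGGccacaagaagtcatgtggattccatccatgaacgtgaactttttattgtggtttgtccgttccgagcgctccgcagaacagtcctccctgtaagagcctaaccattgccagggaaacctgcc
HOXD4, chr2:176151300-176151599, plus strand: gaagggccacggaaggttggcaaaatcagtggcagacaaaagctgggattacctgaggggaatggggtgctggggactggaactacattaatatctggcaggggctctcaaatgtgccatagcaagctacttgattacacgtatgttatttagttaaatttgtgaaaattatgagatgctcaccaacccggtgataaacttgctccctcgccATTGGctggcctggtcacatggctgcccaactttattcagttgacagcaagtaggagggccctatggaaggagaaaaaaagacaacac
GGGCGG, the GC box, was found at the HOXA3 start, CCAAT at the HOXC4 and HOXC5 start (2 matches) and the HOXD4 start (1 match), and neither at LINC02086. The other 5 motifs searched on both strands were in none of the 4. No match overlapped another, and a match is a description of the letters.

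HOX starts held about as many CG pairs, the sequence feature of CpG islands, as protein-coding starts in general, and most were not called open. The 27 annotated HOX start windows of 300 bases (26 distinct, since HOXC4 and HOXC5 share 1) held 0 to 44 CG pairs with a median of 22. The median was 21 over 22156 starts of all protein-coding genes, 27 over those open in all 6 libraries and 8 over those open in none. Among the 14 HOX starts with at least 22 CG pairs, 0 were open in all 6 libraries and 1, that of HOXA3, in any. Of all protein-coding starts with at least 22 CG pairs, 58.9% were open in all 6, and of all protein-coding starts 39.7%. The start of HOXA13, a gene of limb and genital development, held 44 CG pairs and lay 15558 bp from the nearest summit of any list. HOXD1 held 36 and lay 47951 bp away. Of the motifs, CCAAT was in 18 of the 27 HOX windows and in 34.6% of all protein-coding ones, CACGTG in 9 and in 8.34%, GGGCGG in 13 and in 56.3%, and CCGGAAG, the letters bound by ETS factors, in 0 and in 12.8%. TATAAA was in 5 (9.46% of all), TAATTA in 2 (3.39%) and TGATNNAT in 3 (5.2%). As 7 of the windows belong to HOXA3, these counts do not describe 27 separate genes.

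**Figure D4:**
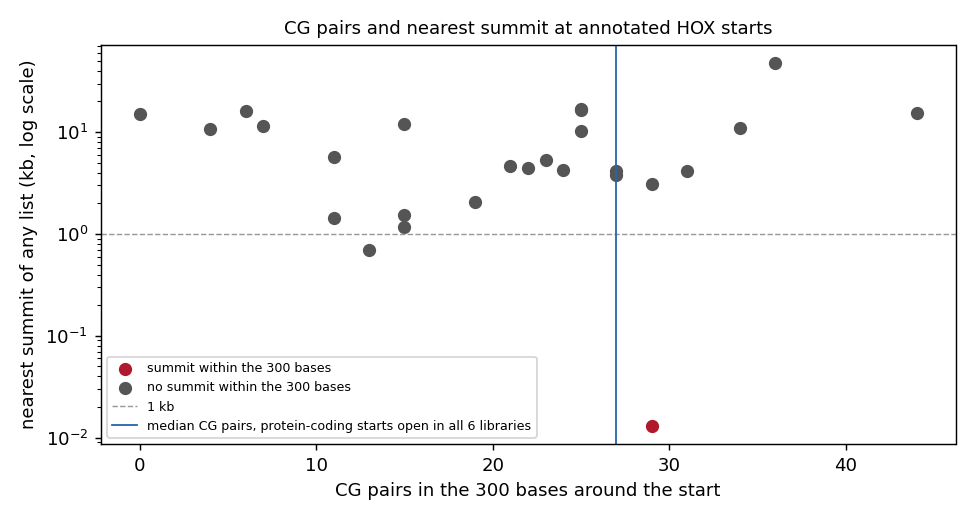
CG pairs in the 300 bases around each of the 26 distinct annotated HOX starts (horizontal axis) and distance to the nearest summit of any of the 6 lists (vertical axis, kb, log scale). The red point is the HOXA3 start that holds summits, the dashed line is 1 kb and the blue line marks 27 CG pairs, the median of protein-coding starts open in all 6 libraries.

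The best ranked of the remaining HOXA sites lay outside the span of the cluster's genes, at 27083863 to 27083943. It ranked 24443 in high replicate 2, 14315 and 13941 in the low and 10058 and 13404 in the live libraries, and was missing from high replicate 1. A site between HOXA7 and HOXA9, at 27160870 to 27161075, ranked 24055 in high replicate 1, 30207 and 44417 in the low and 28166 and 15870 in the live libraries. HOXA9, a driver of myeloid leukemia in which it is kept on, had no site at its start, and this one lay 4479 bp from it. A site between HOXA4 and HOXA5, inside the long HOXA3 span at 27134523 to 27134632, ranked 31204 and 47234 in the low and 30982 and 39862 in the live libraries and was in no high list. HOXA11 had 1 summit, of rank 65440 in live replicate 2.

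HOXB, with the longest window, held the most sites. Of its 19 sites, 6 were among the best regions of at least 1 library. So were 4 of 7 in HOXA, 3 of 10 in HOXC and 1 of 4 in HOXD. A site inside HOXB3 at 48585522 to 48585579, 631 bp from an end of HOXBLINC, a long noncoding RNA, ranked 25744 in high replicate 2, 19270 and 15916 in the low and 5058 and 9244 in the live libraries, and was missing from high replicate 1. Both live libraries ranked it above the 3 sorted libraries that held it, an order whose share over all regions was not counted. The site in the gap towards HOXB13 at 48678539 to 48678646 lay 46186 bp from the nearest HOX end. It ranked 39583 in high replicate 2, 23997 in low replicate 2 and 15736 and 21427 in the live libraries.

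At the HOX genes of this cluster the summits stood lower in the lists. HOXB4, known for expanding blood stem cells, had a summit within 1 kb in 5 lists, with ranks of 44925 in high replicate 2, 28293 and 26475 in the low and 38001 and 32820 in the live libraries, and was among the best regions of none. HOXB2 had ranks of 28705 in low replicate 2 and 24663 in live replicate 2, and the other replicates of these groups had their summit of the same site 1135 and 1101 bp from its nearer end. HOXB7 ranked 46195 in high replicate 2, 46107 in low replicate 2 and 69401 and 34318 in the live libraries. HOXB5 (25516 and 56997), HOXB8 (48432 and 48893), HOXB9 (52035 and 35669) and HOXB13, a gene of prostate development (52727 and 54085), had a summit in both live lists and in no sorted list. These 4 are 10.3% of the HOX genes, against 1.86% of all protein-coding genes and 6.25% of SOX and TBX genes. The live lists are the longest, and the part of list length was not tested.

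In HOXC a second site within HOXC4, at 54053101 to 54053270 and 2804 bp from the gene's nearer end, ranked 19884 in high replicate 2, 16628 and 20266 in the low and 12770 and 10995 in the live libraries. It was missing from high replicate 1. Both live libraries ranked it above the low libraries and the high library that held it. These ranks come from lists of different length, and the share of all regions with this order was not counted. HOXC10 had a summit within 1 kb of an end in high replicate 2 (rank 44449) and both live libraries (61649 and 53816). HOXD had 1 further site in more than 1 list, between HOXD13 and HOXD12 at 176097652 to 176097747, with ranks of 41690 in high replicate 2 and 26516 and 30007 in the live libraries.

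Stretches of each cluster held no summit of any list. How often stretches of such length occur elsewhere in the genome was not counted, so they are not shown to be unusual. In HOXC 56.1 kb from the window's start held HOXC13, which acts in hair and nail growth, HOXC12 and HOXC11 in full. In HOXD 60.2 kb from the site beside HOXD8 to the window's end held HOXD4, HOXD3 and HOXD1. In HOXA a stretch of 37.5 kb held HOXA2 and HOXA4, and in HOXB the longest, of 46.0 kb, lay in the gap before HOXB13. Of the noncoding genes, HOTAIR and HOTTIP, which lie in HOXC and HOXA and are known to bind chromatin regulators, had no summit within 1 kb in any list. HOTAIRM1 and LOC124902939 had one in all 6, HOXBLINC in 5, HOXB-AS1 and LINC02086 in 4, HOXC-AS3 and MIR3185 in 2, and HOXA11-AS and MIR615 in 1 each.

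The clusters also hold microRNA genes, known to act on HOX transcripts. MIR10A, beside HOXB4, had its nearest summit of any list 1129 bp from its hairpin, MIR196A1 4089 bp and MIR196B 8405 bp. Their mature sequences (RefSeq, GRCh38.p14) are shown with the seed, bases 2 to 8, in capitals, because MIR196A1 in HOXB and MIR196B in HOXA carry the same seed in clusters on different chromosomes.
hsa-miR-10a-5p: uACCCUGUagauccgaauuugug
hsa-miR-196a-5p: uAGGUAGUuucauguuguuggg
hsa-miR-196b-5p: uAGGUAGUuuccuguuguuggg
None of the 3 loci had a region within 1 kb in any list.

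Cells sorted for high H3K27ac were first set against those sorted for low H3K27ac. Among the 25627 best regions, 5 and 6 lay in the HOX windows in the high libraries (5.5 ± 0.71, SD, n = 2), and 6 and 8 in the low libraries (7.0 ± 1.41, SD, n = 2). The groups touched at 6, and the difference of -1.5 regions was within the spread of the libraries (exact permutation test, two-sided, p = 0.667). The smallest p that 2 libraries against 2 allow is 2 of 6 splits. By cluster the best regions numbered 2 and 2 in the high against 3 and 2 in the low libraries in HOXA, 1 and 1 against 1 and 4 in HOXB, 1 and 2 against 2 and 2 in HOXC, and 1 and 1 against 0 and 0 in HOXD. Open HOX genes numbered 1 in each high library, against 2 and 1 in the low libraries (difference -0.5, exact permutation test, p = 1.0). Per 10000 summits of the full list, a measure added after the data were seen, the HOX windows held 1.94 and 3.21 in the high libraries, against 3.1 and 3.66 in the low libraries (exact permutation test, p = 0.667). Longer lists had the higher rates.

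**Figure D5:**
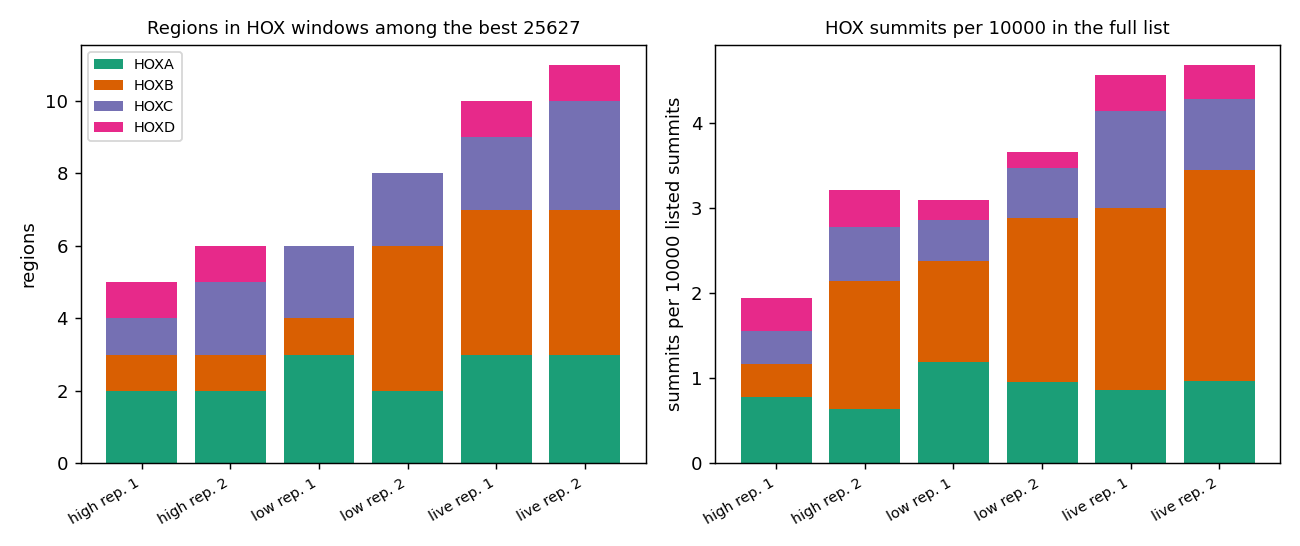
Left, regions in the 4 HOX windows among the 25627 best of each library. Right, HOX summits per 10000 summits of the full list. Colours stack the clusters, with 5 to 8 best regions in the sorted libraries and 10 and 11 in the live ones.

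Single sites differed in presence between the sorted groups. In the full lists 3 of the 40 HOX sites (7.5%) were in both low and no high list, against 3.08% of all regions, and 0 were in both high and no low list, against 0.443%. The 3 were the site between HOXA4 and HOXA5, the site inside HOXB2, and a site inside HOXB1 at 48529535 to 48529573 (ranks 33895 and 46372 in the low libraries), which no live list held. High replicate 1, whose list is the shortest, was 1 of the lists that lacked them. With that library set aside, a check added after the data were seen, 4 sites (10.0%) were in both low lists and not in high replicate 2. Of all regions, 3.63% were. The fourth was the site between HOXA7 and HOXA9, which high replicate 1, the library set aside, held at rank 24055, among its best regions. High replicate 2 has a longer list than low replicate 1 and a shorter one than low replicate 2, and the part of list length was not tested. Among the best regions, the HOXBLINC site was in both low and no high library (3.3% of all regions) at rank 25744 in high replicate 2, and the HOXD site beside HOXD8 in both high and no low library (2.37%). These are presence calls in 2 lists against 2 and were given no test.

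The second comparison set all sorted libraries against the live control. The HOX windows held 5, 6, 6 and 8 of the best regions in the sorted libraries (mean 6.25) and 10 and 11 in the live libraries (mean 10.5). The groups did not overlap, and the difference of -4.25 regions gave p = 0.0667 (exact permutation test, two-sided), the smallest p that 15 splits allow. The excess in the live libraries was largest in HOXB, with 1, 1, 1 and 4 in the sorted against 4 and 4 in the live libraries. The counts were 2, 2, 3 and 2 against 3 and 3 in HOXA, 1, 2, 2 and 2 against 2 and 3 in HOXC, and 1, 1, 0 and 0 against 1 and 1 in HOXD. In each cluster at least 1 sorted library equalled a live one. Open HOX genes numbered 1 to 2 in the sorted libraries and 3 and 2 in the live libraries (difference -1.25, exact permutation test, p = 0.133).

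Full lists gave a wider gap. They held 5 to 19 HOX regions in the sorted and 32 and 34 in the live libraries, whose lists are also the longest. Per 10000 listed summits the HOX windows held 1.94 to 3.66 in the sorted libraries and 4.56 and 4.69 in the live libraries (difference -1.65, exact permutation test, p = 0.0667). This rate rose with list length over all the libraries, from 1.94 in the shortest list to 4.69 in the longest. Dividing by length therefore does not make the lists comparable, and the part of length in the gap was not tested. In the full lists 8 of the 40 HOX sites were in both live and no sorted list, against 8.36% of all regions, and 6 of these 8 lay in HOXB. The HOXB5 site, at rank 25516 in live replicate 1, was the 1 of the 8 among the best regions of a library. In the other direction 1 site (2.5%), that inside HOXB1, was in a sorted list and in no live list, against 12.8% of all regions.

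Lists of genes whose proteins work with HOX factors or on their clusters were counted in the same way, beside the 41.5% of all protein-coding genes open in all 6 libraries. Of 9 cofactor genes, 4 were open in all 6 libraries, among them PBX2, PBX4 and PKNOX1, which encode homeodomain partners of HOX proteins, and MEIS2, MEIS3, PBX3 and PKNOX2 were open in none. MEIS1 was open in low replicate 1 and both live libraries. Of 11 activating regulators 6 were open in all 6 libraries, among them DOT1L and MEN1, the latter acting with the MLL methyltransferase on HOX genes. KMT2A, the gene for MLL, was open in all 4 sorted libraries and in neither live one, as were 0.35% of all protein-coding genes. CDX1, CDX2 and CDX4, embryonic activators of HOX clusters, were open in none. Of 13 silencing regulators 6 were open in all 6 libraries, among them the Polycomb genes EZH2 and EED, and 0 in none. In both low and no high library 2 of the 13 were open, as were 1.49% of all protein-coding genes, and 0 the other way. The cofactor, activating and CTCF and cohesin lists had 0 in either direction. All 5 genes of CTCF and cohesin, which fold the clusters into domains, were open in all 6.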

How the data were processed

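Each deposited file lists single-base summits of 1 library with a score, taken to be −log10 of the q-value or the p-value given by the authors' peak caller. Per the submitters' processing notes, bcl2fastq, FastQC, Bowtie2, Picard and MACS2 were used with the builds hg38 and hg19. The staining protocol spells the mark H3K37ac, read as H3K27ac. For versions, settings, Tn5 shift and duplicate removal: not given in the sources used here. Peaks were listed per library, positions (1-based) are on hg38, since those on chromosome 17 reach 83205829, past its end in hg19, and scores grow with depth, so they were used to rank regions within a list alone. Read depth is unknown.

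Summits on chromosomes 1 to 22 and X closer than 250 bp were chained into 100513 regions, ties in score being broken by a seeded draw. Gene spans came from RefSeq (GRCh38.p14), and annotated starts from its promoter table for 15813 of 19974 protein-coding genes, otherwise both ends were used. Regions in the HOX windows and open HOX genes were counted per library and compared with exact permutation tests over libraries (Python 3.11.15, numpy 2.4.6, pandas 2.3.3). The counting was tested on simulated lists. The HOX genes with a summit within 1 kb in any full list, the sites in all 6 lists and the 6 next by median rank were named by rule, with other sites named where a comparison turned on them after their values were seen. Members and lists were chosen with earlier results of these data known. Alternatives covered list length, chaining, flank, gene window, gene ends, the replicate block and each library left out. Values of some genes are not reported here.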

Additional observations from a re-analysis of the deposited data

Results flagged for a closer look

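Among the 4 sorted libraries, the number of open HOX genes was 1 in 3 libraries and 2 in H3K27ac low replicate 1, which also had HOXA3 open. The gap between that library and the others was the whole range of the group (gap over range 1.0, above Dixon's critical value for 4 samples). The values are whole numbers that differ by 1 gene, and the ratio is 1.0 whenever 3 of 4 counts tie, so the critical value, made for continuous values, gives no rate of chance here.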

How the results depend on the processing

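Sorted libraries held fewer HOX regions than live ones under all 16 alternatives tried, with differences from -20.25 (full lists) to -3.0 regions (-1.65 as summits per 10000 listed), and from -4.83 to -3.75 with 1 library left out. The sign was fixed in advance in some of these. The replicate block keeps the same counts, and leaving 1 library out of groups that do not overlap cannot change it. The high minus low difference in HOX regions was 0.0 with the best 12813 regions of each list, where each sorted library held 2 and each live library 5, and from -2.5 to -0.5 with 1 library left out. It was larger with the full lists, at -6.5 (5 and 14 in the high, 13 and 19 in the low libraries, exact p = 0.667), and with all regions scoring at least 5, at -8.0 (4 and 11 in the high, 12 and 19 in the low libraries, with no overlap). The high minus low difference in open HOX genes was 0.0 with the best 12813 regions and with either gene end used for all genes, -1.0 to 0.0 with 1 library left out, -1.5 with lists of 41840 regions and high replicate 1 left out, and -2.5 with the score minimum of 5 (1 and 2 in the high, 3 and 5 in the low libraries, with no overlap). Where these groups did not overlap, p was the smallest that 2 against 2 allow. The sorted minus live difference in open genes was 0.0 with the best 12813 regions, -1.75 to -0.75 with 1 library left out, -6.5 with the full lists (1, 5, 3 and 5 in the sorted, 9 and 11 in the live libraries, exact p = 0.0667) and -6.75 with the score minimum of 5 (1, 2, 3 and 5 against 8 and 11, exact p = 0.0667). Full lists, the score minimum and the summits per 10000 listed use lists of unequal length. HOX genes open in all libraries numbered 1 in the other settings, 4 with a window of 2500 bp, 5 when a summit anywhere in the gene counted, and 2 without H3K27ac high replicate 1 and with lists of 41840 regions. With that library left out and lists lengthened, an alternative chosen after seeing the data, HOX regions numbered 11 in the remaining high library, 13 and 12 in the low and 19 and 18 in the live libraries. Replicate numbers did not pair the libraries (correlation of rank differences over 19855 shared regions 0.069, -0.009 and 0.004), and with the replicate number as a block the differences in HOX regions stayed at -1.5 (exact p = 0.5) and -4.25 (exact p = 0.111), those in open genes at -0.5 (exact p = 1.0) and -1.25 (exact p = 0.111). No test could reach p under 0.05 with these libraries, and depth is unknown.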
